A study of Homo sapiens with 8 samples.

Results

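Cadherins are the adhesion receptors through which neighbouring cells hold on to each other. The set described here is the 40 genes of the classical and atypical cadherins, the protocadherins that lie outside the protocadherin gene clusters, the giant FAT cadherins with their ligand DCHS1, and the CELSR receptors. The members were chosen by gene family. For each gene all probe sets that the platform annotation gives to that gene alone were taken, and the brightest of them on average over the 8 arrays represents the gene. This gave 37 of the 40 genes on 80 probe sets, among 19775 genes on 41097 single-gene probe sets in all. CDH4, CDH13 and PCDH20 had no probe set named for them alone and were not measured here, although the promoter windows of CDH4 are counted below. Of the 37 genes, 22 had more than 1 probe set and 15 had 1.

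The cells were MDA-MB-231, an established human basal-like breast cancer line. An siRNA against HMGA1 (siHMGA1, 4 arrays) was compared with a control siRNA (siCTRL, 4 arrays), and RNA was taken 72 h after transfection. HMGA1 is a small chromatin protein that bends and opens DNA at stretches of A and T, and the comparison asks which transcripts differ when it is silenced. The methods describe the replicates as biological, and the labels use the same replicate numbers in both groups. Neither tells whether they were separate cultures from the start. Each p-value thus reflects the spread between these arrays, which may be technical. The series holds 1 cell line, and no untransfected cells are among its 8 arrays. In a bulk culture, fewer cells with a transcript and less of it per cell cannot be told apart.

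Classical cadherins bind cadherins on the next cell outside, and inside they hold beta-catenin, which links them through alpha-catenin to actin. Epithelial cells rely on E-cadherin (CDH1), while mesenchymal cells carry N-cadherin (CDH2) or type II cadherins such as CDH11. Protocadherins adhere weakly and act mainly as recognition and signalling molecules. FAT and DCHS proteins bind each other between cells and feed into planar polarity and the Hippo growth pathway, and CELSR receptors organise planar polarity.

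HMGA1 itself fell on its brightest probe set, from a mean log2 signal of 12.75 ± 0.114 to 10.33 ± 0.192 (SD, n = 4 each), with no overlap between the groups. Its other probe set, 210457_x_at, fell less, at a log2 fold change of -0.90 (limma adjusted p = 9.83e-04) against -2.42. Levels are log2 signals after RMA, and fold changes are those of siHMGA1 relative to siCTRL. The line's markers VIM, CD44 and EGFR were bright, at siCTRL means of 14.69, 12.36 and 11.67, PGR was at 3.98, and ESR1 and ERBB2 were at 6.51 and 8.49. VIM fell, at a log2 fold change of -0.16 (limma adjusted p = 0.0405), and EGFR rose, at 0.32 (limma adjusted p = 0.00259). CD44, PGR, ESR1 and ERBB2 did not pass. Of 5 leukocyte markers 3 were measured, and 1 of them, PTPRC, rose from 4.67 to 5.17, while CD3E and CD14 were at 6.08 and 6.87 in siCTRL and did not pass. KDR, 1 of 4 endothelial markers, fell from 5.55 to 5.28. PECAM1, VWF and TEK were at 8.12, 5.65 and 5.56 in siCTRL and did not pass. SYT1, 1 of 3 neural markers, fell from 6.90 to 6.31. SNAP25 and GFAP were at 6.88 and 6.73 in siCTRL and did not pass. None of 3 melanocyte markers passed the test. The part of all these markers in the results was not tested. Array medians were 6.07 to 6.12, and the correlation across probe sets was 0.995 to 0.998 within a group and 0.989 to 0.992 between groups. As a scale for low signals, 82 olfactory receptor genes, which a breast line is not known to use, had a median of 4.58, with 6.12 as their 95th percentile. A gene with a mean under 6 in both groups is called dim below.

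After HMGA1 silencing, 6 of the 37 members rose and 2 fell at an adjusted p under 0.05 from limma over all genes. PCDH7, FAT3, FAT1, FAT4, CDH11 and PCDH17 were higher, and CDH18 and CELSR1 were lower. The changes were uneven in size. PCDH7 and FAT3 more than doubled on the linear scale (2.51-fold and 2.18-fold), and the other 6 changed by 1.23-fold to 1.63-fold. E-cadherin and N-cadherin did not pass the test. The share of members that rose, 16.2%, stood beside 15.8% of all genes, and the share that fell, 5.41%, beside 14.7%. In either direction 21.6% of the members and 30.5% of all genes passed, so the members did not pass more often than other genes. The signals of the groups did not overlap in 10 of the 37 members (27%) and in 32.6% of all genes. At the stricter thresholds that the methods name (log2 fold change past 1.4, adjusted p below 1e-04), no member passed in limma on its brightest probe set, against 0.627% of all genes.

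The remaining 29 members had log2 fold changes between -0.26 and 0.27, and 18 of the 37 members were dim. None of the dim members passed the test in limma, where 5.22% of dim genes did, and 1 of them, CDH9, had an unadjusted p under 0.05 (0.0308). Of the 19 members that were not dim, 42.1% passed, beside 44% of all such genes. CDH18 and PCDH17 count among these 19 through the group in which they were higher, so that share is only a description. When arrays were centred on 9 housekeeping genes, which moved the median of all genes from 0.01 to 0.09, 10 members rose, with CDH9, CDH16, CDH19 and CELSR2 added, and the same 2 fell. Of these 9 genes, 2 fell and 2 rose. That centring also lowered the share of falls among all calls from 48.2% to 31.8%. The 8 members kept their direction and their call under it and under cyclic loess.

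**Figure D1:**
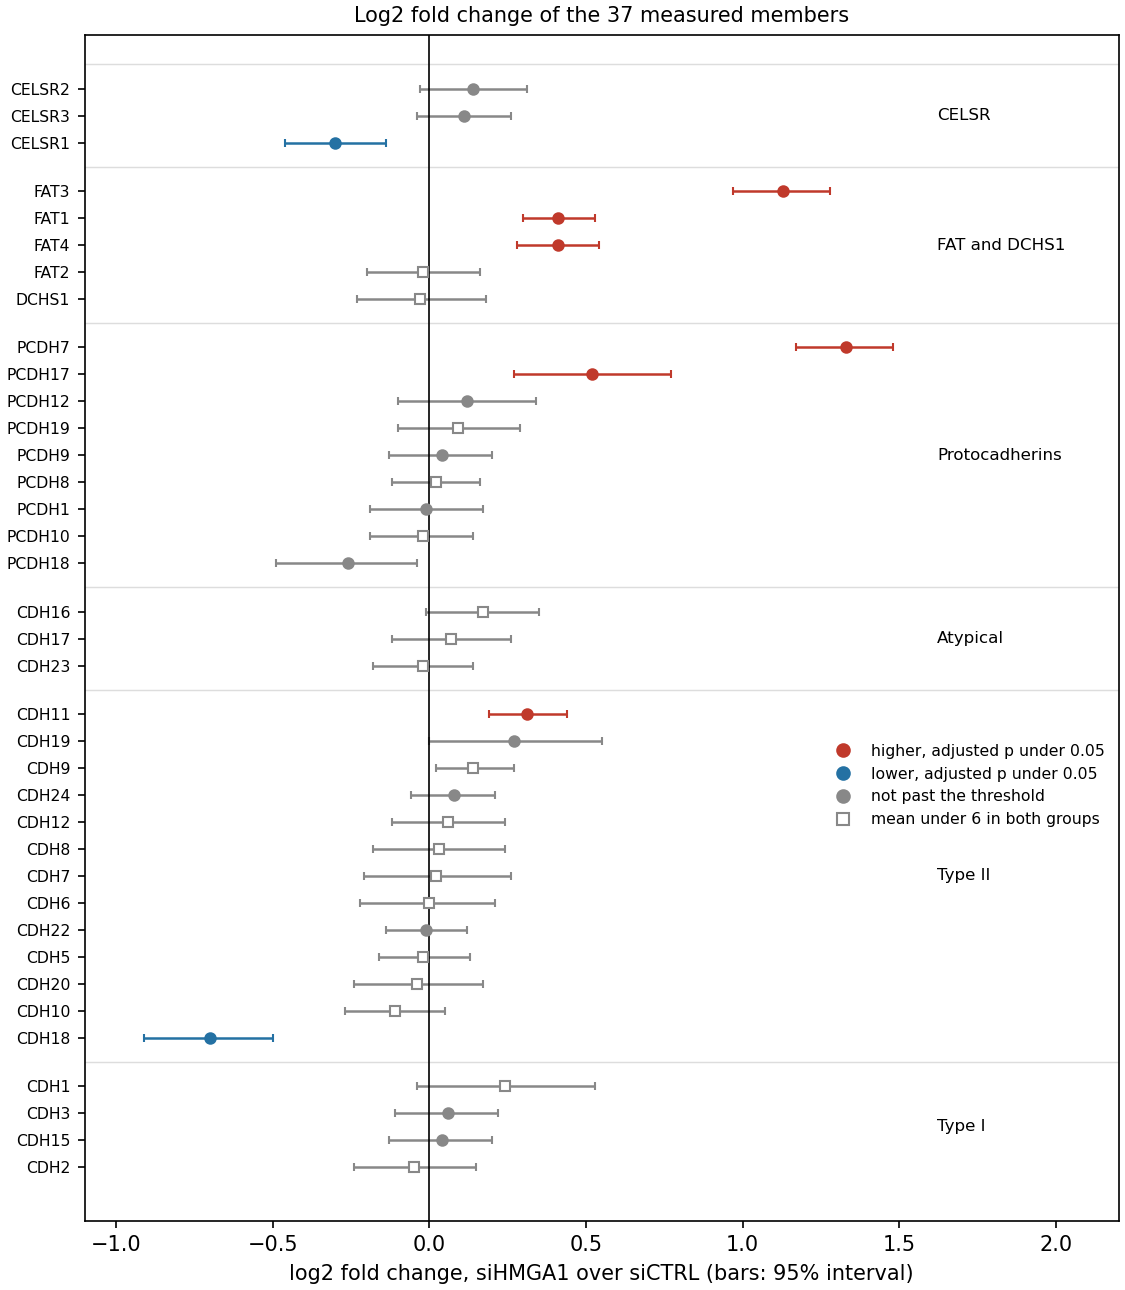
Log2 fold change (siHMGA1 over siCTRL, horizontal axis) of the 37 measured members, by family, with 95% intervals from limma over 4 arrays per group. Red and blue points passed an adjusted p of 0.05, and open squares are members with a mean under 6 in both groups. PCDH7 (1.33) and FAT3 (1.13) lie farthest to the right, and CDH18 (-0.70) farthest to the left.

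Of the 8 members that passed, 4 have an entry in the RefSeq promoter table used here (GRCh38.p14): PCDH7, PCDH17, FAT1 and CDH18. FAT3, FAT4, CDH11, CELSR1 and CDH1 were not matched there. The 250 bases before the annotated start are shown for the protocadherins that rose and for the type II cadherin that fell, because HMGA1 binds runs of A and T. Capitals mark every unbroken run of at least 6 A or T bases, read on either strand since such a run is A or T on both.

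PCDH7, chr4:30720119-30720368, plus strand: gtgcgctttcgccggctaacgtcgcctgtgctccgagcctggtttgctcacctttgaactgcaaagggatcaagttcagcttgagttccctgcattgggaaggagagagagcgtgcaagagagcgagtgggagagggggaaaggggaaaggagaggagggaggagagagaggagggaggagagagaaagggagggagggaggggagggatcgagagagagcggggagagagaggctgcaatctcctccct
PCDH17, chr13:57631494-57631743, plus strand: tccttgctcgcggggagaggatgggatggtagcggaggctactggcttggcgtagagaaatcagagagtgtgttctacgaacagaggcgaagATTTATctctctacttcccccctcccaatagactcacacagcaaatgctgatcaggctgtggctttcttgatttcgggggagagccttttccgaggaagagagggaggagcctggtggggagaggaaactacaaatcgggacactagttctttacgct
CDH18, chr5:20575714-20575963, minus strand, the first of its 3 annotated starts: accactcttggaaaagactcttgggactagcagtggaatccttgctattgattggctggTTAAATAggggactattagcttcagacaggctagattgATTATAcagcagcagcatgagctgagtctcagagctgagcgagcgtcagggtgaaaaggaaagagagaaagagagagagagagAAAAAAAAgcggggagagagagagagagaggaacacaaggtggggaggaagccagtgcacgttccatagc

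The PCDH7 window held no such run and was 40.4% A or T, below the median of 42.0% over 35116 promoter windows of the same length. The PCDH17 window held 1 run and was 47.2% A or T. The CDH18 window held 3 runs, the longest of 8 bases, and was 51.6% A or T, while its other starts had 35.6% and 60.4%. FAT1, with starts at 22.0% and 26.0%, lay at the A/T-poor end, with no run. The members thus differed widely from one another. Windows on chromosome 8 were left out for the members but kept among all windows. Over the 34 windows counted for 23 members, CDH4 among them, A/T content ranged from 19.2% to 66.8% with a median of 41.2%. A run was present in 50% of these windows and in 58.7% of all windows. The E-box CACCTG, or CAGGTG on the other strand, which SNAIL and ZEB factors bind, was in 17.5% of all windows and in none of the windows of these 4 genes. These are counts of letters in short windows and say nothing of what is bound there.

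The classical type I cadherins form the adherens junctions of epithelia and nerve, and none of the 4 measured passed the limma test, nor had any an unadjusted p under 0.05. CDH1 (E-cadherin, the main adhesion receptor of epithelia) read 4.76, 4.67, 4.37 and 5.07 in siCTRL and 5.18, 4.97, 4.80 and 4.91 in siHMGA1. The groups overlapped, and all 8 values lay below the 95th percentile of the olfactory receptor genes. The log2 fold change was 0.24 (standard error, SE, 0.129, 95% interval -0.04 to 0.53, limma adjusted p = 0.193). Leaving out the fourth siCTRL array, the highest of its group, gave 0.36 with an adjusted p of 0.0315 from limma. Its other probe set was dimmer and had a log2 fold change of 0.08.

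CDH2 (N-cadherin, of nerve and mesenchyme) was also dim. Its signals were 5.82, 6.07, 5.75 and 5.99 in siCTRL and 5.88, 6.04, 5.74 and 5.76 in siHMGA1. The groups lay on top of each other, at a log2 fold change of -0.05 (95% interval -0.24 to 0.15, limma adjusted p = 0.747). The second CDH2 probe set had 0.19 and did not pass, so the sign of CDH2 rests on the probe set. CDH3 (P-cadherin, of basal epithelial cells) and CDH15 (M-cadherin, of muscle) were not dim, with log2 fold changes of 0.06 and 0.04.

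Type II cadherins are expressed in mesenchyme, vessels and subsets of neurons, and 8 of the 13 were dim. Of the 13, CDH11 rose and CDH18 fell, 15.4% in either direction beside 30.5% of all genes. CDH11 (OB-cadherin, of mesenchymal cells and osteoblasts) read 12.71, 12.70, 12.69 and 12.58 in siCTRL and 12.96, 13.02, 13.01 and 12.94 in siHMGA1. Every siHMGA1 array was above every siCTRL array by a small step, 0.31 on the log2 scale (SE 0.057, limma adjusted p = 0.00128). At this brightness a probe set can be near saturation, which RMA values do not show. The CDH11 probe sets did not behave alike, as given below.

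CDH18, a cadherin of the nervous system, fell on its single probe set. The siCTRL arrays read 6.62, 6.44, 6.15 and 6.40, and the siHMGA1 arrays 5.83, 5.71, 5.66 and 5.60. The groups were apart, and the siHMGA1 values lay below the 95th percentile of the olfactory receptor genes. The log2 fold change was -0.70 (SE 0.0944, limma adjusted p = 1.37e-04). Signals at that level include background, so this value can understate the fall.

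CDH19, CDH22 and CDH24 were the other type II cadherins above the dim limit. CDH19, a cadherin of Schwann cell precursors, had the highest log2 fold change among members that did not pass, 0.27 (limma adjusted p = 0.127), and passed without the third siCTRL array and with array weights. Its signal was at 6.14 and 6.42 on average, and its siCTRL arrays had an SD of 0.31 against 0.0403 in siHMGA1. CDH5 (VE-cadherin, the junction cadherin of endothelium) was dim, at 3.81 ± 0.0406 in siCTRL and 3.80 ± 0.118 in siHMGA1 (SD, n = 4 each). In the dim CDH9, the groups did not overlap (3.80 and 3.95 on average), with an adjusted p of 0.0878 from limma, and it passed without the first siCTRL array, with array weights and in the methods' t-test. The 3 atypical members measured, CDH16 (kidney), CDH17 (intestine) and CDH23 (a tip link protein of hair cells), were all dim, with log2 fold changes from -0.02 to 0.17.

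Among the 9 protocadherins measured, 2 rose (22.2%, beside 15.8% of all genes) and none fell (beside 14.7%). PCDH7 is a protocadherin with a long extracellular part and several transcript forms. Its brightest probe set read 8.51, 8.29, 8.36 and 8.22 in siCTRL and 9.61, 9.69, 9.68 and 9.71 in siHMGA1. The gap between the groups was far larger than the spread within either. The log2 fold change was 1.33 (SE 0.0692, limma adjusted p = 1.36e-07), the largest of the members on their brightest probe sets, an order that turned when probe sets were averaged, as given below.

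PCDH17, which acts at synapses and in the outgrowth of axons, stood near the dim limit. Its values were 6.26, 5.81, 6.07 and 5.73 in siCTRL and 6.68, 6.45, 6.42 and 6.39 in siHMGA1. The groups were apart by a narrow gap, since the highest siCTRL array lay just below the lowest siHMGA1 array. The log2 fold change was 0.52 (SE 0.113, limma adjusted p = 0.00386).

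PCDH18 had separate groups without passing the test, at -0.26 (limma adjusted p = 0.0748, unadjusted p = 0.0251). Its first siCTRL array was at 7.69, and the other siCTRL arrays were at 7.24, 7.25 and 7.18. It passed without the fourth siCTRL array, when genes with a mean under 6 were left out, and with the replicate number as a block. PCDH1, PCDH9 and PCDH12 were above the dim limit, with log2 fold changes of -0.01, 0.04 and 0.12. PCDH8, PCDH10 and PCDH19 were dim.

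In the FAT and DCHS family, 3 of the 5 members rose (60%, beside 15.8% of all genes) and none fell (beside 14.7%). With 5 genes, chosen with earlier results of these data known, these shares are only a description. FAT3, which in mice shapes the dendrites of retinal amacrine cells, read 10.08, 9.95, 10.21 and 9.93 in siCTRL. In siHMGA1 it read 11.09, 11.20, 11.18 and 11.20. The 4 siHMGA1 arrays lay close together and well above all controls, with a log2 fold change of 1.13 (SE 0.0715, limma adjusted p = 4.90e-07).

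FAT1, a regulator of actin at cell edges and of Hippo signalling, had a strong signal with little spread. The siCTRL arrays read 12.77, 12.74, 12.77 and 12.72 and the siHMGA1 arrays 13.17, 13.20, 13.13 and 13.16. The groups were apart by a modest step (SD 0.0269 and 0.0276), with a log2 fold change of 0.41 (SE 0.0521, limma adjusted p = 8.51e-05). As with CDH11, a probe set this bright can be near saturation, which RMA values do not show.

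FAT4, the receptor that pairs with DCHS1, also rose. It read 8.95, 8.98, 8.94 and 8.90 in siCTRL and 9.28, 9.28, 9.40 and 9.44 in siHMGA1, with no overlap. The log2 fold change was 0.41 (SE 0.0594, limma adjusted p = 2.64e-04). DCHS1, its ligand, was dim and had a log2 fold change of -0.03 (95% interval -0.23 to 0.18). FAT2 was dim as well, at -0.02. FAT1 and FAT4 each rest on 1 probe set.

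CELSR proteins are cadherins with several membrane passes that align polarity between neighbouring cells, and all 3 were above the dim limit. CELSR1, needed for neural tube closure in mice, read 8.18, 7.90, 8.13 and 7.93 in siCTRL and 7.71, 7.70, 7.75 and 7.78 in siHMGA1. The groups were apart, with a log2 fold change of -0.30 (SE 0.0725, limma adjusted p = 0.00780). CELSR2 and CELSR3 had 0.14 and 0.11 and did not pass.

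**Figure D2:**
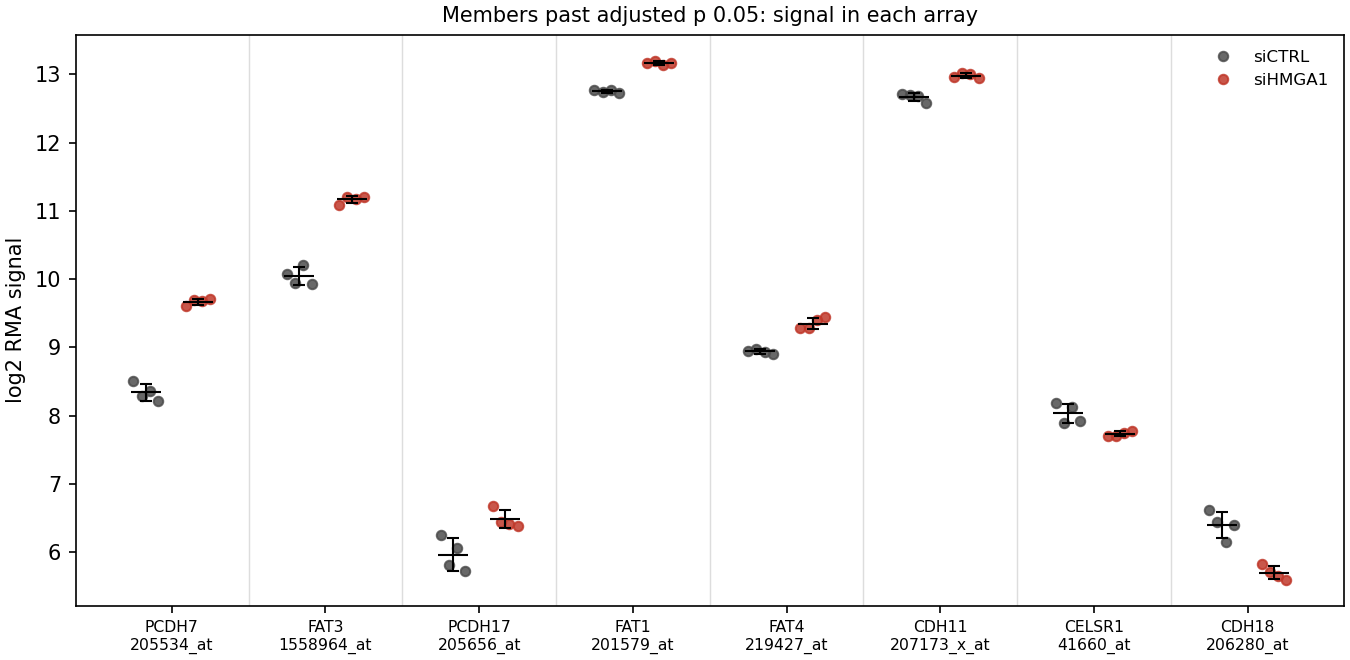
Log2 RMA signal (vertical axis) of the 8 members past an adjusted p of 0.05, each array a point, siCTRL grey and siHMGA1 red, with black lines for the mean and bars for the SD of 4 arrays. The groups are apart in each gene, by 1.33 in PCDH7 and by 0.30 to 0.31 in CELSR1 and CDH11. Heights are not comparable between genes.

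The groups of these 8 members did not overlap, which fixes the two-sided p of an exact permutation test at 0.0286. That is the smallest that 4 arrays against 4 allow. PCDH18 and CDH9, which did not pass in limma, had the same value, so it adds no support for the 8.

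The brightest probe set does not speak for every probe set of a gene. Over the 80 probe sets of the members, 12 rose and 5 fell at an adjusted p under 0.05 from limma over all single-gene probe sets, which is 21.2% beside 25.9% of all such probe sets. The share of all genes with a call on at least 1 probe set was not computed, and a gene with more probe sets has more occasions for one. Such a call was seen in 10 members. Besides the 8 above these were CDH6, a type II cadherin of the developing kidney, and PCDH9. Probe set 205532_s_at of CDH6 fell by 0.26 (limma adjusted p = 0.0452) with overlapping groups, and 219738_s_at of PCDH9 fell by 0.23 (limma adjusted p = 0.0398). Both were dim, while the brightest probe sets of these genes had log2 fold changes of 0.00 and 0.04.

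PCDH7 showed the widest disagreement, with 3 of its 5 probe sets higher, 1 lower and 1 that did not pass. The second brightest, 228640_at, fell: it read 8.47, 8.18, 8.38 and 8.28 in siCTRL and 7.36, 7.52, 7.53 and 7.76 in siHMGA1. These groups were apart too, in the opposite direction and by a smaller gap than those of the brightest probe set, with a log2 fold change of -0.79 (SE 0.0925, limma adjusted p = 6.46e-05).

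Probe set 205535_s_at rose from 6.34, 6.22, 6.51 and 6.46 to 7.65, 7.88, 7.86 and 7.76, a log2 fold change of 1.4 (limma adjusted p = 3.73e-07). Probe set 210941_at, dim in both groups, rose from 4.43, 4.33, 4.32 and 4.01 to 5.30, 5.52, 5.16 and 5.49, a change of 1.09. Both moved with the brightest one. Probe set 210273_at read 6.21, 6.05, 6.47 and 6.03 in siCTRL and 6.08, 5.82, 5.79 and 6.02 in siHMGA1. Its groups overlapped, at -0.26 (limma adjusted p = 0.0956).

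Within each array, the log2 signal of 205534_at minus that of 228640_at was between -0.07 and 0.11 in siCTRL and between 1.95 and 2.25 in siHMGA1. The difference of these differences was 2.11 (SE 0.0751). This is a description with no test, as are the differences between the 2 brightest probe sets of FAT3, PCDH17 and CDH11 that follow, since the pairs were chosen with their changes known. When the probe sets of each gene were averaged, PCDH7 had a log2 fold change of 0.56, below FAT3 (0.84) and PCDH17 (0.68). The files do not say which PCDH7 transcripts each probe set reads, so no transcript form can be named.

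**Figure D3:**
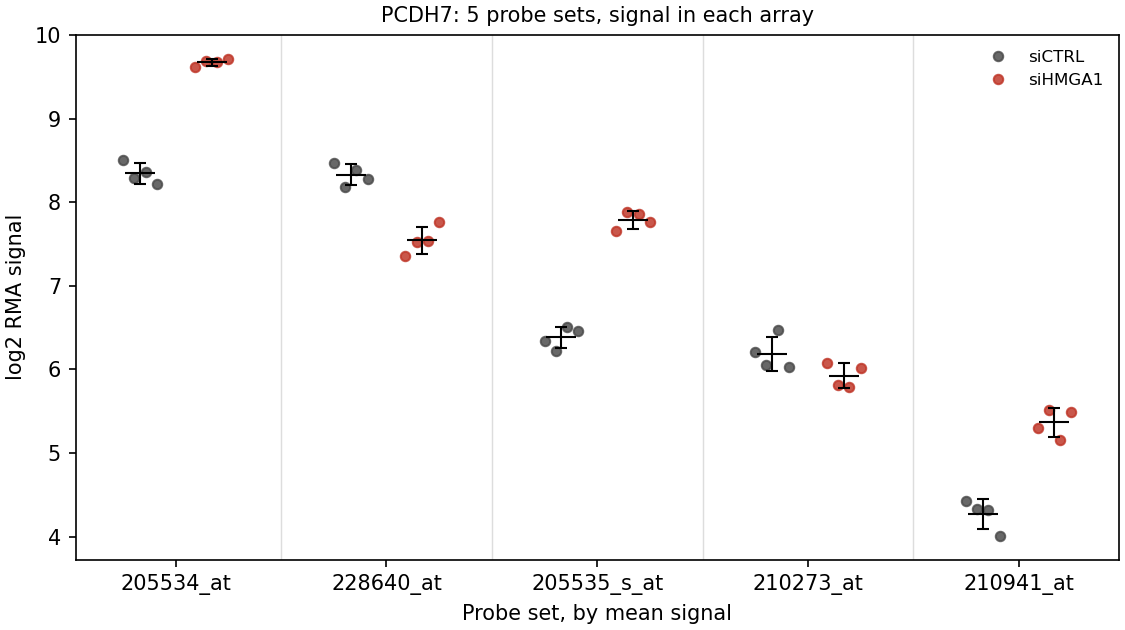
Log2 RMA signal (vertical axis) of the 5 PCDH7 probe sets (horizontal axis, by mean signal) in each array, siCTRL grey and siHMGA1 red, with lines for the mean and bars for the SD of 4 arrays. In siHMGA1, 3 probe sets are higher, 228640_at is lower in all 4 siHMGA1 arrays, and the groups of 210273_at overlap.

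In FAT3, probe set 236029_at rose more than the brightest one, by 1.46 on the log2 scale (limma adjusted p = 1.59e-07). It read 9.42, 9.24, 9.46 and 9.26 in siCTRL and 10.71, 10.78, 10.87 and 10.84 in siHMGA1. The difference between the rises of these probe sets was 0.33 (SE 0.0291). The third probe set was dim, at a mean of 3.67 in siCTRL, and had -0.06. With 205535_s_at of PCDH7, 236029_at was 1 of 2 member probe sets past the stricter thresholds.

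All 3 PCDH17 probe sets rose, by 0.52, 0.63 and 0.90. Probe set 228863_at, with the largest rise, read 5.64, 4.96, 5.53 and 4.99 in siCTRL and 6.09, 6.32, 6.13 and 6.19 in siHMGA1. Its siCTRL arrays were spread far wider than its siHMGA1 arrays (SD 0.352 and 0.0995). That rise and the rise of the brightest probe set differed by 0.38 (SE 0.12).

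CDH11 split into pairs of probe sets. Besides the brightest, 207172_s_at rose, by 0.46 (limma adjusted p = 6.28e-04), while 236179_at and 239286_at had -0.04 and -0.14 and did not pass. The brightest pair, 207173_x_at and 236179_at, differed in their change by 0.36 (SE 0.0835). Without probe sets that the platform marks as able to cross-hybridise or to read several transcripts, CDH11 was represented by 236179_at, at -0.04. The fall of CELSR1 also rested on its brightest probe set. The other CELSR1 probe sets, both dim, had 0.08 and 0.25, neither past the threshold, and the mean of all of them was 0.01.

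The genes that work with cadherins were counted in 8 lists, which were drawn up with earlier results of these data known. Of 82 such genes 77 were measured, and 18 rose and 11 fell, 37.7% beside 30.5% of all genes. Fewer of these genes were dim (18 of 77), and among genes with a mean of 6 or more, 28 of 58 passed (48.3%) beside 49.6% of all such genes. These counts take the brightest probe set of each gene, and other probe sets can differ, as given below. The share that passed was 69.2% in planar polarity, 60% in the FAT and DCHS pathway and 50% among the E-box binding factors. It was 30% in trafficking, 27.3% among the catenins and linkers, 25% in nectins and 20% in proteases. Among other genes of the cadherin superfamily it was 12.5%. The lists are short and differ in their dim genes, 2 of 13 in planar polarity and 9 of 16 in the last. Of all genes that were not dim, 44% passed.

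Of the 11 catenins and linkers measured, 1 rose and 2 fell. CTNNB1 (beta-catenin) was at 13.54 ± 0.0168 in siCTRL and 13.53 ± 0.0379 in siHMGA1 (SD, n = 4 each), so that its log2 fold change was -0.01 (95% interval -0.13 to 0.10). Of its other probe sets, 1554411_at rose by 0.61 (limma adjusted p = 7.45e-05) with no overlap, and 223679_at had -0.19 and did not pass. VCL (vinculin, which strengthens the link to actin) fell by 0.34 (limma adjusted p = 8.16e-04). CTNNA1 (alpha-catenin) fell by 0.16 (limma adjusted p = 0.0437), a call that was lost under 11 of 18 alternatives, and its sign changed under 1 more. Its probe sets disagreed. The dimmer 1558214_s_at rose by 0.35 (limma adjusted p = 0.0168) with no overlap, 200765_x_at fell by 0.18, and the remaining ones did not pass. CTNNAL1, an alpha-catenin relative, rose by 0.25. CTNND1 was not measured on a single-gene probe set.

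The nectins are immunoglobulin-type receptors that seed junctions next to cadherins, and 1 of the 4 changed. NECTIN3 read 10.75, 10.40, 10.60 and 10.51 in siCTRL and 9.33, 9.22, 9.53 and 9.53 in siHMGA1. The groups were more than a log2 unit apart on average (-1.16, SE 0.0925, limma adjusted p = 2.54e-06), and its second probe set fell too, by 0.32. NECTIN1, NECTIN2 and NECTIN4 had -0.13, -0.11 and 0.03.

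Of 5 proteases that cut cadherins or their precursors, PSEN2, a gamma-secretase subunit, rose by 0.24, and the other 4 did not pass on their brightest probe set. ADAM10, which sheds the outer part of E- and N-cadherin, had 0.02 there, while its other probe sets, 202604_x_at and 214895_s_at, rose by 0.38 and 0.29. Of 10 genes for cadherin trafficking and junctional GTPases, 3 rose and none fell on the brightest probe set. These were RAB11A, which recycles cadherins to the membrane (0.52, limma adjusted p = 3.59e-05), the endocytic adaptor NUMB (0.35) and the junction scaffold TJP1 (0.24). The NUMB call was lost without the first or the third siHMGA1 array (0.32 in each case) and in the methods' t-test. Dimmer probe sets of this list moved in both directions. Probe set 1567458_s_at of RAC1 rose by 0.39 (limma adjusted p = 0.00496), where the brightest RAC1 probe set had 0.01. CDC42, a GTPase of the junctional actin, had -0.08 on its brightest probe set, and its other 4 fell by between 0.28 and 0.57. The ARF6 probe sets 203312_x_at and 214182_at fell by 0.20 and 0.45, and 220018_at of CBLL1, which marks E-cadherin for uptake, fell by 0.57.

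Of 8 transcription factors known to bind the E-boxes of the CDH1 promoter, 2 rose and 2 fell. ZEB1 read 11.40, 11.28, 11.27 and 11.11 in siCTRL and 10.23, 10.31, 10.31 and 10.45 in siHMGA1, a log2 fold change of -0.94 (SE 0.0746, limma adjusted p = 2.50e-06). All 4 of its probe sets fell.

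ZEB2 read 6.66, 6.33, 6.52 and 6.06 in siCTRL and 5.27, 5.29, 5.55 and 5.51 in siHMGA1, and all its siHMGA1 values lay below the 95th percentile of the olfactory receptor genes (log2 fold change -0.99, limma adjusted p = 6.25e-05). Its second probe set fell by 0.57, and 3 dimmer ones did not pass. TCF4 rose by 0.58 on its brightest probe set, and all 8 of its probe sets rose. TCF3, the other E protein of the list, rose by 0.21 on its brightest probe set only. The nearly as bright 213811_x_at had -0.08, and none of the other TCF3 probe sets passed. SNAI2 had -0.14 (limma adjusted p = 0.107), SNAI1, TWIST1 and TWIST2 were dim, and none of these 4 passed. CDH1, whose promoter these factors are known to bind, had 0.24 and did not pass, as given above.

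In planar polarity, where the CELSR proteins act, 6 of 13 genes rose and 3 fell. The receptor FZD3 rose by 0.90 (limma adjusted p = 6.41e-05), and all 4 of its probe sets rose, by 0.76 to 0.90. The cytoplasmic DVL3 rose by 0.65 on its brighter probe set, and the dimmer one had -0.10 and did not pass. INTU, a planar polarity effector of cilia, rose by 0.48. PRICKLE2 fell by 0.43 and the scaffold SCRIB by 0.37. VANGL1 had -0.14 on its brightest probe set and did not pass, while its other 3 fell, by 0.29, 0.27 and 0.19.

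Of 10 genes of the FAT and DCHS pathway and the Hippo cascade, 4 rose and 2 fell. FJX1, whose fly relative four-jointed phosphorylates Fat and Dachsous, rose from 9.62 ± 0.0549 to 10.10 ± 0.0847 (SD, n = 4 each), by 0.48 (limma adjusted p = 1.11e-04). LIX1L, whose fly relative lowfat binds Fat and Dachsous, fell by 1.06 (limma adjusted p = 6.00e-07), on its brighter probe set, and the second had -0.12 and did not pass.

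The Hippo kinase LATS2 read 11.21, 11.15, 11.16 and 11.03 in siCTRL and 11.95, 12.05, 11.97 and 11.92 in siHMGA1, a rise of 0.83 (limma adjusted p = 1.32e-06), while LATS1 had 0.05. SAV1, the scaffold of the cascade, rose by 0.49 on its brightest probe set and by 0.74 on the next ones, and 238729_x_at fell by 0.25. The upstream kinase STK3 fell by 0.50, and its relative STK4 rose by 0.23. Members of the cascade thus moved in both directions.

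Of 16 other genes of the cadherin superfamily, DSC2 (desmocollin, of desmosomes) fell by 0.64 (limma adjusted p = 4.77e-04) on its brightest probe set, and its other 3 probe sets did not pass. CLSTN3 (a calsyntenin) rose by 0.39. DSG2, a desmosomal partner, had -0.13 and did not pass, and 9 of the 16 were dim.

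**Figure D4:**
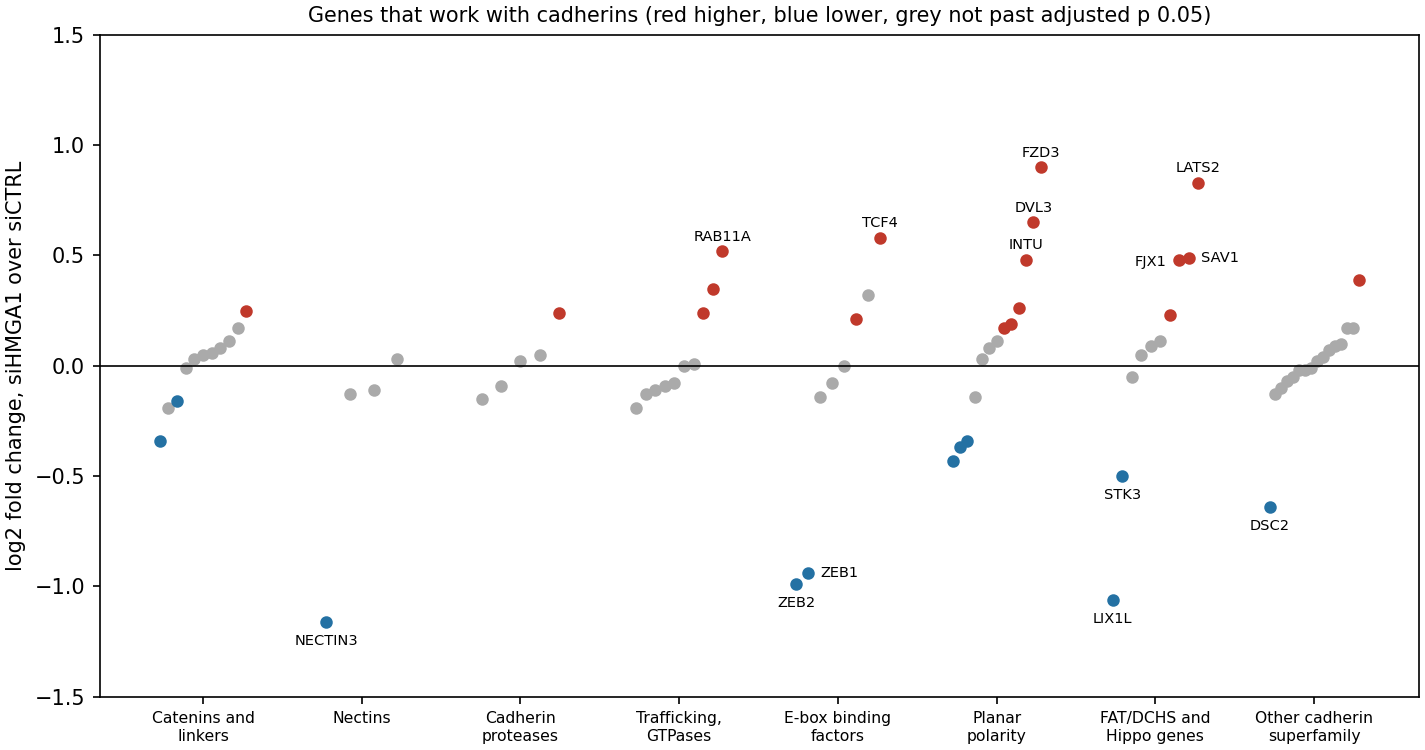
Log2 fold change (siHMGA1 over siCTRL, vertical axis) of the 77 measured genes that work with cadherins, by list (horizontal axis), 1 point per gene on its brightest probe set. Red points rose and blue points fell at an adjusted p under 0.05, from NECTIN3 at -1.16 to FZD3 at 0.90.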

How the data were processed

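RNA of 8 samples of MDA-MB-231 cells, 4 per group, was measured on Affymetrix arrays. The authors deposited log2 signals per probe set, obtained by RMA (background correction, quantile normalisation and summarisation) after the Affymetrix Expression Console. Quantile normalisation takes out any difference in overall signal between arrays. The methods give 4 replicates on one array type in one section and 3 on another type elsewhere, and the deposited values are 4 per group on hgu133plus2 probe sets. No read depth stands behind a signal, and the number of arrays limits the precision.

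Gene names came from the platform annotation, checked against RefSeq (GRCh38.p14). The table had 54675 rows, of which 41097 carried a single gene name and were used. Rows with several genes (1801) or with no gene name here (11777) were not used. Each of 19775 genes was represented by its brightest probe set on average. Promoter windows of 250 bases came from the RefSeq table.

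The groups were compared with limma (version 3.58.1, R 4.3.3), with Benjamini and Hochberg adjustment over all genes, or over all single-gene probe sets where probe sets are given. Single members were also compared with exact permutation tests. The limma fit was tested on simulated data, and the other steps were not.

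The members and lists were chosen with earlier results of these data known. Every member past an adjusted p of 0.05 was named, with per-array values also for the PCDH7 probe sets, CDH1 and CDH2. Of each partner list, up to 4 genes with the largest change were named, with up to 2 of the opposite direction. Other genes named without passing, probe sets of other members and the per-array values of partners were chosen after their values were seen. As alternatives, the fit was repeated with replicate number as a block, with genes represented by the mean of their probe sets or without _s_at, _x_at and _a_at probe sets, by probe set, with cyclic loess, centring on housekeeping genes (9 of the 11 listed were measured), a mean of 6 or more, a trended robust fit, array weights, the methods' two-tailed Student test and leaving out each array.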

Additional observations from a re-analysis of the deposited data

How the results depend on the processing

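Of the 8 members past the threshold, PCDH7, PCDH17, FAT1, FAT3, FAT4 and CDH18 kept their direction and call under the alternatives, which for the fit by probe set refers to the brightest one only, since 228640_at of PCDH7 fell by 0.79 there. With the mean of all probe sets, PCDH7 had 0.56 in place of 1.33, 1 member fell instead of 2, CELSR1 was at 0.01 and CDH2 at 0.07, and CDH11 had 0.15 (limma adjusted p = 0.0908), VCL -0.15 and TCF3 0, none of the 3 past the threshold. Without the probe sets marked _s_at, _x_at or _a_at, CDH11 was at -0.04 (adjusted p = 0.79 from limma), CDH2 at 0.19, TCF3 at -0.17 and CTNNA1 at 0.02. Housekeeping centring gave 10 members and 4795 genes that rose, and CDH2 at 0.03. CDH2 was at 0 without the second siCTRL array, and leaving out 1 array at a time moved it between -0.11 and 0. Array weights gave 8 members that rose, with CDH9 and CDH19 added. Taken by probe set, 5 fell and 12 rose of 80 for the members, 31 and 42 of 210 for the partner lists, and 5144 and 5483 of 41097 in all.

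Leaving out 1 array at a time gave 2 to 3 members that fell and 6 to 7 that rose, 10 to 11 and 16 to 19 partner genes, and 2503 to 2909 and 2633 to 3222 genes in all. Arrays with the same replicate number did not deviate together (correlations of 0.0664, 0.269, 0.107 and -0.123, and 1 of the 4 numbers correlated best with itself). With that number as a block, 3 members fell and 6 rose, with PCDH18 added, and CTNNA1 lost its call (adjusted p = 0.0771 from limma). Dim signals limit what can be seen in 18 members.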

Other observations

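The siCTRL arrays were not evenly spread in several members, a pattern noticed after the values were seen. In PCDH7, PCDH17, FAT1, FAT3 and CELSR1, 5 of the 8 members past the threshold, siCTRL replicates 1 and 3 both read above replicates 2 and 4 on the brightest probe set. In none of the 8 did both read below. Over all 37 members this order was seen in 8 (21.6%) and the reverse in 13 (35.1%), and over all genes in 25.4% and 27.7%. The split thus ran across all genes and was not particular to the members. Probe set 228863_at of PCDH17 showed it too, at 5.64 and 5.53 against 4.96 and 4.99, where all siHMGA1 arrays were higher still. In CELSR1, siCTRL replicates 1 and 3, at 8.18 and 8.13, stood farthest from the siHMGA1 arrays, and replicates 2 and 4, at 7.90 and 7.93, lay closer to them. The labels give these arrays no feature in common beyond their group, and the p-values above treat the 4 siCTRL arrays as independent.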
